A study of Homo sapiens with 58 samples.

Results

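Changes in chromatin accessibility that arose after the first hours of SOX9 loss were examined in human cranial neural crest cells (CNCCs), by comparing cells exposed to the degrader for 24 h with cells exposed for 3 h. CNCCs were derived in vitro from H9 human embryonic stem cells, an established line, and were harvested at passage 4. In the SOX9-tagged line, both SOX9 alleles carried FKBP12F36V, mNeonGreen and V5 at the C terminus, and the degrader dTAGV-1 binds this tag, brings an E3 ubiquitin ligase to the protein and so depletes SOX9. Accessibility was measured by ATAC-seq as read counts over 151457 regulatory elements (REs). The comparison used 4 of the 58 samples of the series: SOX9-tagged cells in 500 nM dTAGV-1 for 24 h, and SOX9-tagged cells in vehicle for 21 h followed by 500 nM dTAGV-1 for 3 h, each in differentiations R4 and R5. The same pair of conditions in WT cells, which carry no tag (4 samples), served as the control for the drug and the culture time, and vehicle-treated cells of both genotypes (vehicle for 24 h, R4 and R5) completed the time course of 12 samples. All time-course cells were therefore collected at the same point of culture. The tagged cells are gene-edited clones, and the R5 columns of the count table name clone S9CC47 where the sample titles name S9CC13, so the clone of R5 is uncertain, and clone and differentiation cannot be told apart. The labels list the same residual SOX9 percentage for drug-treated WT and tagged time-course cells, although WT cells have no degron. Nothing in the labels states that R4 and R5 are more than 2 separate differentiations. Differentiation was a covariate, which removes the difference in level between R4 and R5. The p-values of the time course therefore rest on how far changes between conditions differed between R4 and R5.

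SOX9 is an HMG-box transcription factor that binds DNA as a monomer or as a dimer on facing copies of its recognition sequence. It is known in neural crest for specification of the lineage and, later, for commitment to cartilage. Once a transcription factor is removed, sites that depend on it directly can close within hours, whereas changes that appear later can follow from altered levels of its target genes, including other transcription factors such as the TWIST1 and homeodomain pair that binds the composite Coordinator motif of CNCC enhancers, or the AP-1 dimers that bind many stress- and growth-responsive enhancers.

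Total counts in REs were 43017163 to 60073710 in the 4 tagged samples and 43017163 to 62585685 across the time course, and tagged R4 at 3 h was the shallowest. Promoters of the 8 CNCC markers examined (TFAP2A, TFAP2B, TWIST1, PRRX1, NR2F1, ALX1, MSX1 and DLX2) held a mean of 17.8 (MSX1) to 124 (NR2F1) CPM (read counts scaled to each library's TMM-normalised total) per kilobase of RE in the 4 tagged samples, against a median of 13.6 over 23220 promoter REs. Of the markers of other cell types, 14 of 19 had a promoter RE, and 12 of these had means of 2.13 to 13.7. The other 2 were CDH5 of endothelium at 25.97 and EPCAM of epithelium at 27.04. The promoters of NANOG, PECAM1, PTPRC, MYF5 and TP63 held no RE.

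The sequences of 4 REs at the ends of the distribution are shown because they carry the motifs that recur in the results. Each is the central 300 bases of the RE in hg38, plus strand. Capitals mark the SOX core ACAAT, the E-box CAGATG that forms part of the Coordinator, and the AP-1 site TGANTCA, on either strand.
DIAPH1, chr5:141521381-141521680: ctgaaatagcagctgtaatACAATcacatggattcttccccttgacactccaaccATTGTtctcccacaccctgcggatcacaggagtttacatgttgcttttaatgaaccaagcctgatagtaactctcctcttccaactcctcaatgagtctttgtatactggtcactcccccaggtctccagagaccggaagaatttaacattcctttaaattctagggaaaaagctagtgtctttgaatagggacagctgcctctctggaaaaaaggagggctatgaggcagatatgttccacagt
FAM20C, chr7:87010-87309: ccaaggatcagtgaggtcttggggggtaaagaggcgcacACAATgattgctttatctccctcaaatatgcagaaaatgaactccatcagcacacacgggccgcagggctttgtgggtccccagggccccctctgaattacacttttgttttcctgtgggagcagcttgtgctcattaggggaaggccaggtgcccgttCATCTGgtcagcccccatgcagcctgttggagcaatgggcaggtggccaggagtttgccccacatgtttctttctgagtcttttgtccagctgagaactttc
ADGRL3, chr4:61919112-61919411: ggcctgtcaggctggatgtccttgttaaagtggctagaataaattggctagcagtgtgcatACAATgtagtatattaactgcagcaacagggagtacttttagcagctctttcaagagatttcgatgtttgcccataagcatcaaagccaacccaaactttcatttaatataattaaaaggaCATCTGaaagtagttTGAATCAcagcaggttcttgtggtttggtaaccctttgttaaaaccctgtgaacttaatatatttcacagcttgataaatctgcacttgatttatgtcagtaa
TTLL7, chr1:83807883-83808182: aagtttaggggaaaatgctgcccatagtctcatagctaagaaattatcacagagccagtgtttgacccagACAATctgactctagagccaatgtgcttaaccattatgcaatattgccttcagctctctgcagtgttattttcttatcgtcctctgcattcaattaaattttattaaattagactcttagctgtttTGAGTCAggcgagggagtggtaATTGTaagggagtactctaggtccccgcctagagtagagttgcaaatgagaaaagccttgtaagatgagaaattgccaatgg
The first 2 lost accessibility from 3 h to 24 h, and the last 2 gained it. DIAPH1 encodes a formin that nucleates actin, FAM20C a kinase of secreted proteins that acts in mineralised tissue, and ADGRL3 an adhesion G-protein-coupled receptor. In these windows the DIAPH1 RE held 2 SOX cores and the FAM20C RE 1 SOX core and 1 E-box. The ADGRL3 RE held 1 of each of the 3 motifs, and the TTLL7 RE held 2 SOX cores and 1 AP-1 site.

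In SOX9-tagged cells, 2645 REs were less accessible and 1510 more accessible at 24 h than at 3 h (edgeR quasi-likelihood test on counts with differentiation as covariate, Benjamini-Hochberg adjusted p below 0.05 over all REs), which was 1.75% and 0.997% of the REs tested. The median fitted log2 change was -0.77 among the lower REs and 0.56 among the higher REs, and -0.001 over all REs. A change of at least 2-fold was fitted for 646 of the lower REs and for 107 of the higher. Of the lower REs, 2635 moved in the same direction in both differentiations, as did all 1510 higher REs. The REs were called on these same samples, which favours a shared direction, so nothing is read from these counts. The medians were larger in R4 than in R5, at -0.97 against -0.46 for the lower REs and 0.70 against 0.37 for the higher. The counts rested on R4 more than on R5: without R4, 2 REs passed the threshold, and without R5, 3534 did. Both of these fits also held the WT samples, and with all 12 samples 2424 REs passed. DESeq2 called 1090 REs, all of them among the 4155.

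WT cells gave no RE past the threshold from 3 h to 24 h in edgeR (7135 at an unadjusted p below 0.05), and 4 in DESeq2. The REs that were lower in tagged cells were nevertheless displaced in the same direction in WT cells. Their median WT change was -0.46 in R4 and -0.13 in R5, and the fitted WT change was below 0 for 2444 of 2645 (92.4%), against 50.5% of all REs. For the higher REs the median WT change was 0.10 in R4 and 0.06 in R5, and 1236 of 1510 (81.85%) had a fitted WT change above 0, against 49.5% of all REs. The difference between genotypes passed the threshold at 1 RE when tested itself as an interaction over the 12 samples (7866 at an unadjusted p below 0.05; 27 in DESeq2). At an unadjusted p below 0.05 the tagged change was the more negative at 1010 of the lower REs (against 2.86% of all REs) and the more positive at 599 of the higher REs (against 2.34% of all REs). These REs were chosen for their tagged change, which enters the difference, so these last counts are a description and nothing is read from them. With 1 RE past the threshold, a change particular to tagged cells was not detectable at most single REs with 2 differentiations.

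**Figure D1:**
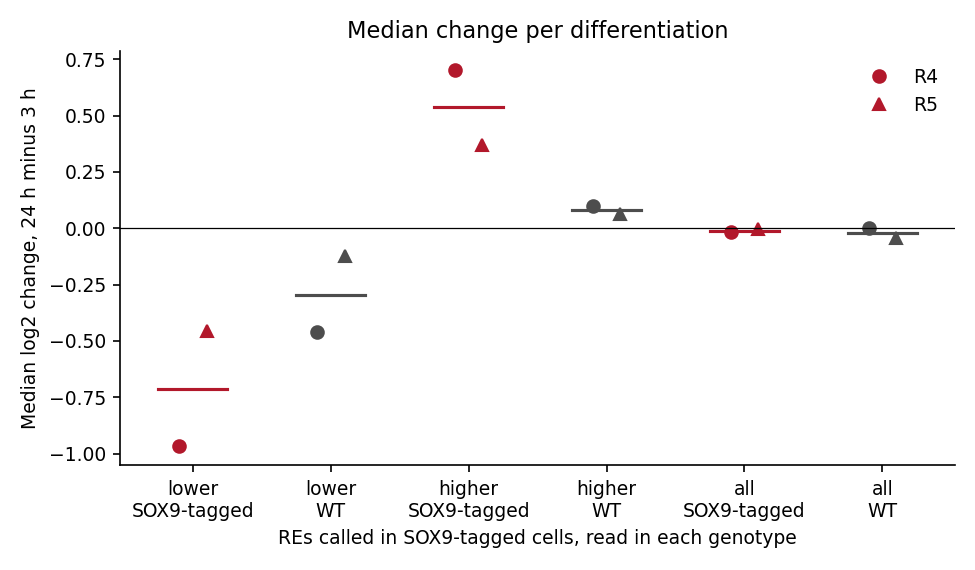
Median log2 change in accessibility from 3 h to 24 h (y axis) for REs called lower, called higher and all REs, read in SOX9-tagged and WT cells. Circles are R4, triangles R5 and bars the mean of both; the lower REs sat at -0.97 and -0.46 in tagged cells and at -0.46 and -0.13 in WT cells.

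Libraries differed in ways that moved with these sets. The lower REs were more accessible in R4 than in R5 in both genotypes, and held 4.47% of all counts in tagged R4 at 3 h and 4.72% in tagged R4 vehicle, against 2.12% and 2.49% in R5. WT cells showed the same order, with 4.74% and 4.45% in R4 and 2.98% and 2.80% in R5. At 24 h the share was 2.55% (R4) and 1.54% (R5) in tagged cells and 3.82% and 2.69% in WT cells. In the 7 tagged replicates of the 48 h series without drug, the share ran from 1.89% to 4.40%, so differentiations also varied in these REs where no SOX9 had been removed. Promoter REs held 35.9% (R4) and 36.2% (R5) of counts in tagged cells at 3 h and 37.5% and 38.2% at 24 h. In WT cells promoters held 35.0% and 33.7% at 3 h and 33.6% and 37.5% at 24 h, so that the WT R5 pair differed in the same direction as the tagged pairs and the WT R4 pair in the opposite one. The part of these library differences in the calls was not tested.

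The single RE whose change differed between genotypes lay in an intron of DIAPH1 (chr5:141521281-141521781, 2.73 kb from the start site). Its normalised CPM values were 44.05 (R4) and 29.6 (R5) in tagged vehicle cells, 4.32 and 2.46 at 3 h, and 0.707 and 1.05 at 24 h. In WT cells they lay between 35.9 and 49.4 in all 6 samples. Both 24 h values were below both 3 h values, and no tagged treated sample overlapped a WT sample. The tagged change from 3 h to 24 h was -1.92 ± 0.23 (log2 ± SE, adjusted p = 0.00098, edgeR), the WT change -0.04 ± 0.11, and the difference -1.88 ± 0.26 (adjusted p = 0.042, edgeR). The RE was also lower after 48 h in the samples of the dose series (-5.06 ± 0.19).

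Of the next 3 REs by the test of the difference, those near CMTM7 and TPST1 also fell from 3 h to 24 h. In an intron of CMTM7, a MARVEL-domain membrane protein (chr3:32420056-32421011), CPM was 9.74 and 3.60 at 3 h and 3.84 and 1.71 at 24 h, a change of -1.22 ± 0.13. In the untranslated region of TPST1, a tyrosylprotein sulfotransferase (chr7:66356367-66356867), it was 4.665 and 2.805 at 3 h and 1.91 and 1.315 at 24 h, a change of -1.20 ± 0.16. The 3 h and 24 h groups did not overlap at TPST1, and overlapped at CMTM7, where R4 at 24 h was above R5 at 3 h. Neither passed the threshold for the difference between genotypes (adjusted p = 0.12 each, edgeR).

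**Figure D2:**
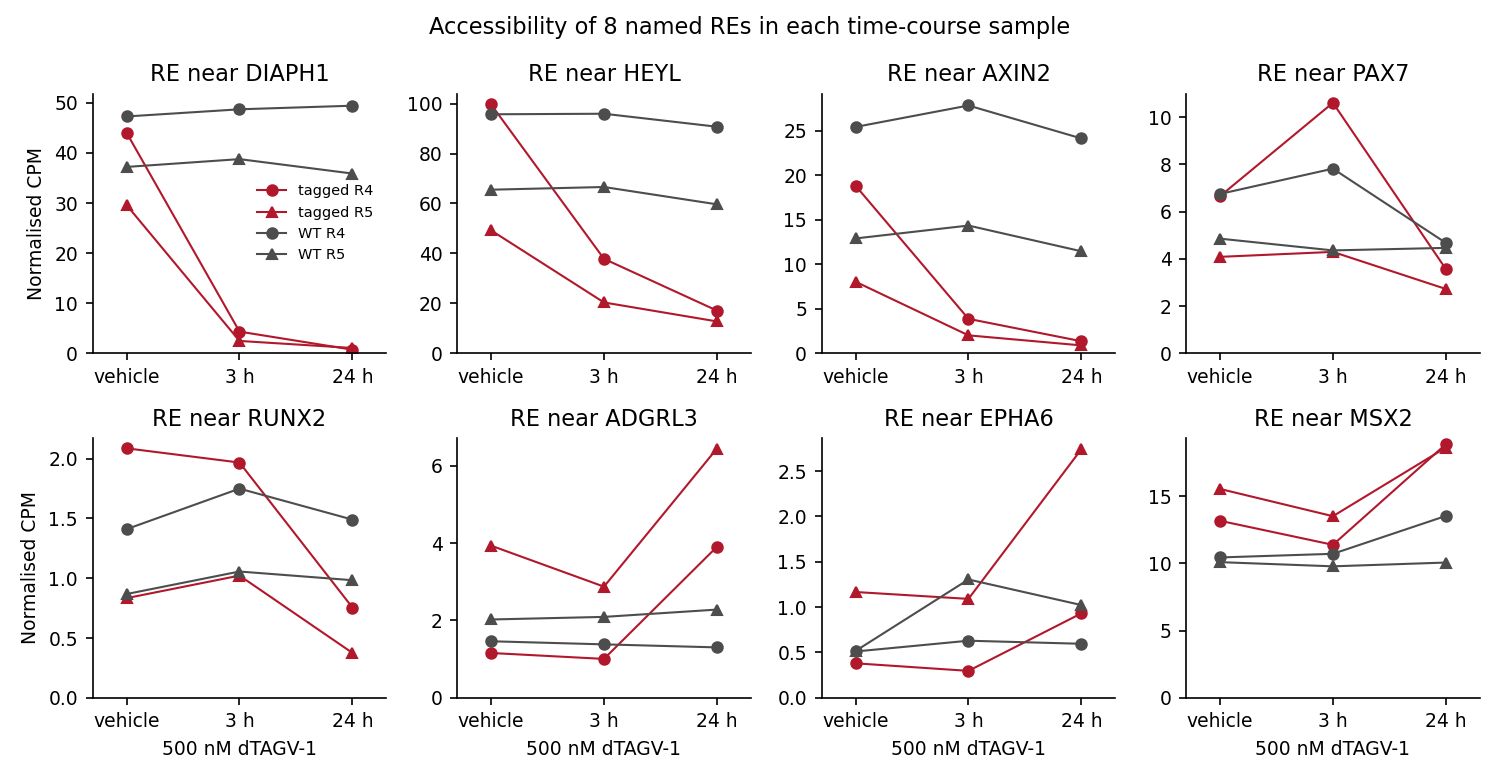
Normalised CPM (y axes, each from 0) of 8 named REs in vehicle, 3 h and 24 h samples (x axis), with SOX9-tagged cells in red, WT cells in grey, R4 as circles and R5 as triangles. At DIAPH1, HEYL and AXIN2 most of the fall preceded 3 h, at PAX7 and RUNX2 tagged vehicle and 3 h values were close or higher at 3 h, and at ADGRL3, EPHA6 and MSX2 the 24 h values were the highest of each tagged differentiation.

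The 8 largest falls, among REs with at least 50 counts on average that moved the same way in both differentiations and with 1 RE per nearest gene, included DIAPH1. At FAM20C and SHISA9 the 3 h level was also already below vehicle in both differentiations. The FAM20C RE (chr7:86910-87410, 105 kb from the start site) went from 30.3 and 3.92 CPM in vehicle to 7.36 and 1.02 at 3 h and 1.54 and 0.470 at 24 h, a change from 3 h to 24 h of -1.95 ± 0.23 (adjusted p = 0.0011, edgeR). The RE in SHISA9, an auxiliary protein of glutamate receptors, went from 10.6 and 1.28 to 3.385 and 1.04 and then to 0.691 and 0.432, with WT values of 2.62 to 8.56. At both REs each 24 h value was below the 3 h value of its own differentiation, while the 2 differentiations differed several-fold at the start.

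At 3 further REs, R4 was far more accessible than R5. An RE in an intron of NKD1, a feedback antagonist of WNT signalling (chr16:50570899-50571399), held 10.7 CPM in R4 and 0.883 in R5 at 3 h, and 1.53 and 0.695 at 24 h. Its tagged change of -2.08 ± 0.42 rested on R4 (-2.78, against -0.33 in R5), and in WT R4 it also went from 9.94 to 2.76. An RE in an intron of SMOC1, assigned to SLC8A3 by distance (chr14:69981109-69981609), held 38.65 and 1.455 CPM at 3 h and 6.36 and 1.20 at 24 h, and in WT cells 62.65 and 4.53 at 3 h and 25.4 and 3.50 at 24 h. SMOC1 encodes a matrix protein that modulates BMP signalling. The ADGRD1 RE (chr12:131152480-131152980) held 5.24 and 0.641 CPM at 3 h and 1.19 and 0.301 at 24 h. WT values at these 3 REs moved in the same direction as tagged values in R4, and in R5 at SLC8A3 only.

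The 8 largest gains under the same rule lay outside promoters, 6 of them outside protein-coding genes (here called intergenic). The RE nearest TTLL7 was among these 6 and lay in the long non-coding RNA gene LINC01725. The ADGRL3 RE, in an intron (chr4:61919012-61919512, 422 kb from the start site), held 1.01 CPM in R4 and 2.87 in R5 at 3 h and 3.90 and 6.44 at 24 h. WT samples held 1.30 to 2.28, and both tagged 24 h values lay above all WT values. Tagged R5 also lay above them at 3 h and in vehicle (3.93). The change was 1.53 ± 0.23 (adjusted p = 0.0035, edgeR). An intergenic RE nearest AKR1E2, an aldo-keto reductase gene (chr10:4883250-4883750), held 0.457 and 0.952 CPM at 3 h and 1.77 and 1.97 at 24 h, and one nearest EPHA6, an ephrin receptor gene (chr3:95923460-95923960, 891 kb away), 0.297 and 1.09 at 3 h and 0.932 and 2.74 at 24 h. At AKR1E2 both 24 h values exceeded both 3 h values. At EPHA6 R4 at 24 h remained below R5 at 3 h. The TTLL7 RE, near a tubulin polyglutamylase gene, went from 1.12 and 0.641 to 3.76 and 1.03, so that most of its gain was in R4. Gains of 1.33 to 1.41 were also fitted nearest KCNU1 (a potassium channel gene), ZBBX, TSPAN8 (a tetraspanin gene) and TRIM36 (a ubiquitin ligase gene). Against vehicle, the 24 h changes were 1.51 ± 0.22 at KCNU1, 0.32 ± 0.22 at ZBBX, 0.68 ± 0.28 at TSPAN8 and 1.32 ± 0.29 at TRIM36. The ZBBX RE had gone from 1.34 and 1.73 CPM in vehicle to 0.686 and 0.797 at 3 h. Mean counts per sample were 52.25 to 199 at 7 of these 8 REs.

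The 24 h minus 3 h comparison shares its 3 h samples with the comparison of 3 h with vehicle, and its 24 h samples with the comparison of 24 h with vehicle, so the medians are given side by side only. The lower REs had a median fitted log2 change of 0.12 from vehicle to 3 h and of -0.65 from vehicle to 24 h. The higher REs had -0.04 and 0.42. The choice of these REs on the 3 h samples moves the 3 h medians of both sets, and each set mixed REs that had changed strongly by 3 h with REs that had not, so nothing is read from these medians. To relate the later change to the earlier one without shared samples, REs were grouped by their change at 3 h in one differentiation, and the 24 h minus 3 h change was read in the other. REs at least 4-fold below vehicle at 3 h in R4 (1799 REs) had a median later change of -0.33 in R5, and those so grouped in R5 (1193 REs) one of -0.60 in R4. For REs 2- to 4-fold below vehicle at 3 h, the medians were -0.14 in R5 (5313 REs) and -0.23 in R4 (4087 REs). Within 0.5 log2 units of vehicle, they were 0.01 and -0.007. WT cells had no group of 20 or more REs at least 4-fold below vehicle, and WT medians in the next group were -0.01 (238 REs, read in R5) and -0.18 (117 REs, read in R4). REs at least 2-fold above vehicle at 3 h in one tagged differentiation had later medians of -0.008 (435 REs) and -0.06 (180 REs).

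**Figure D3:**
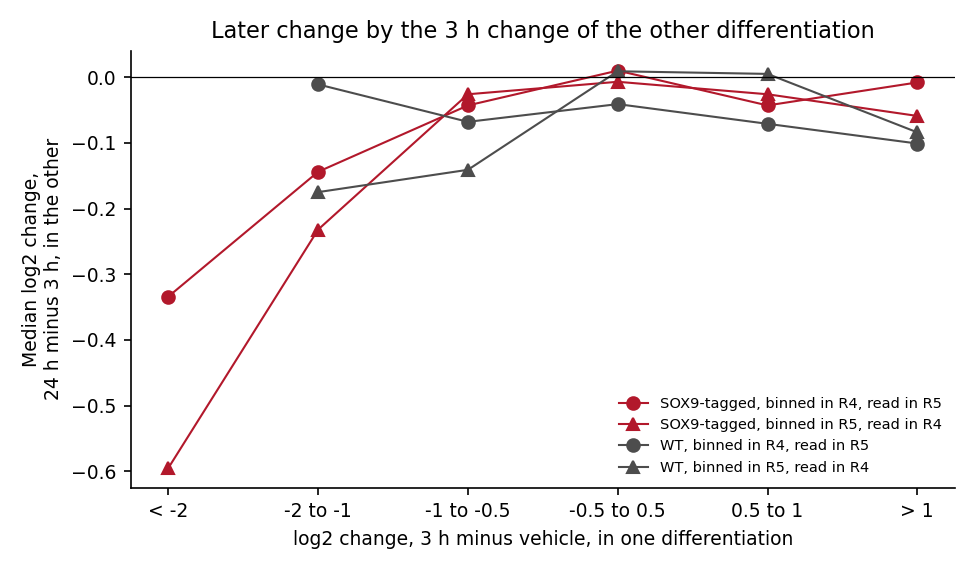
Median log2 change from 3 h to 24 h (y axis) of REs grouped by their log2 change from vehicle to 3 h in the other differentiation (x axis), in SOX9-tagged (red) and WT (grey) cells. The tagged medians were -0.33 and -0.60 in the group that had fallen most at 3 h and near 0 from -1 upwards; groups under 20 REs are not drawn.

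Tagged cells of a 48 h series at 0 and 500 nM dTAGV-1, 7 replicates a side, shared no sample with the time course. They showed whether the called REs also differed from 0 nM in other cultures. This comparison includes any change of the first 3 h, so it cannot show the step from 3 h to 24 h by itself. The 7 replicates came from 6 differentiations, since S9CC13_R6 and S9CC47_R6 share R6, and S9CC47_R5 shares its differentiation number with the time course. For 1 of the 7, differentiation R14, the concentration labels of the 0 and 0.5 nM samples are the reverse of their titles; the titles were used, and the results are also given without R14. At 48 h, 13.9% of all REs were lower and 10.2% higher than at 0 nM (edgeR, adjusted p below 0.05). Of the 2645 REs lower from 3 h to 24 h, 2217 (83.8%) were lower at 48 h and 2 were higher, and these 2217 made up 10.5% of the REs lower at 48 h. Of the 1510 higher REs, 964 (63.8%) were higher at 48 h and 14 were lower, and these 964 made up 6.25% of the REs higher at 48 h. Without the R5 samples of the 48 h series, for which 12.6% of all REs were lower and 8.99% higher, the shares were 83.0% and 62.9%. Without the R14 samples, for which 12.2% of all REs were lower and 9.01% higher, they were 78.0% and 61.1%. The median 48 h change of the lower REs was -0.70 and that of the higher REs 0.41. In WT cells at 48 h, 500 nM against 0 nM, the lower REs had a median change of -0.03 ± 0.04 (SD, n = 2 differentiations) and the higher REs of 0.01 ± 0.02. These WT pairs compare drug with no drug in other cultures, so they are not set against the WT change from 3 h to 24 h. The like comparison in the time course is WT cells at 24 h against vehicle. There the lower REs had medians of -0.33 in R4 and -0.09 in R5.

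Read the other way, from the 48 h series without R5 to the time course, 19143 REs were lower at 48 h and had a median change from 3 h to 24 h of -0.36 in R4 and -0.20 in R5, against -0.02 and -0.11 in WT cells. The 13617 REs higher at 48 h had medians of 0.40 and 0.17, against 0.11 and -0.06 in WT cells. In the 6091 REs at least 2-fold lower at 48 h (4.02% of all REs), most of the loss was early, with -1.58 (R4) and -1.34 (R5) from vehicle to 3 h and -0.50 and -0.31 from 3 h to 24 h. The 999 REs at least 2-fold higher at 48 h (0.66% of all REs) showed the opposite order, with 0.09 and 0.12 from vehicle to 3 h and 0.82 and 0.38 from 3 h to 24 h. WT cells had 0.23 and -0.08 for these 999 REs from 3 h to 24 h. Of them, 226 (22.6%) were called higher from 3 h to 24 h, and of the 6091, 894 (14.7%) were called lower.

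Grouped by the 48 h result, the lower REs differed in their WT medians in R4 and hardly in R5. The 894 lower REs that fell at least 2-fold at 48 h had tagged medians of -1.10 (R4) and -0.58 (R5) from 3 h to 24 h, and WT medians of -0.25 and -0.14. The 450 lower REs that were not lower at 48 h had tagged medians of -0.93 and -0.51 and WT medians of -0.55 and -0.12. The SOX core was in 56.9% of the former and 36.9% of the latter. Among the higher REs, the 226 that rose at least 2-fold at 48 h had tagged medians of 1.06 and 0.61, and the 560 not higher at 48 h had 0.43 and 0.32. The WT medians were 0.32 and -0.07 for the former and -0.11 and 0.37 for the latter. Promoters made up 2.21% of those 226 REs and 62.1% of those 560.

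Across the 48 h dose series, which lowers SOX9 stepwise, the mean of both sets moved little up to 1.6 nM and further at each higher dose. The median change of the lower REs from 0 nM was 0.03 ± 0.10 (SD, n = 7) with 0.5 nM and -0.05 ± 0.08 with 1.6 nM. It reached -0.23 ± 0.11 with 5 nM, then -0.37 ± 0.10 with 16 nM, and -0.70 ± 0.10 with 500 nM. By the labels, these doses leave 77.9%, 51.7%, 25.8%, 8.14% and 0.95% of SOX9. In the same order of doses the higher REs had -0.05 ± 0.08, 0.002 ± 0.078, 0.09 ± 0.10, 0.19 ± 0.09 and 0.38 ± 0.10. All 7 replicates were below 0 for the lower REs from 5 nM upwards, and all 7 above 0 for the higher REs at 16 nM and 500 nM. At 5 nM the lower REs had reached 33.3% ± 17.7 of their 500 nM change and the higher REs 19.0% ± 27.4, and the spread between replicates was too wide to order the sets. At 16 nM these shares were 54.8% ± 18.6 and 48.2% ± 17.05. A large part of the change thus came between 16 nM and 500 nM, a step labelled as 8.14% to 0.95% of SOX9. Without R14, the medians at the highest dose were -0.70 for the lower and 0.37 for the higher REs, and at the lowest dose 0.01 and -0.05.

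**Figure D4:**
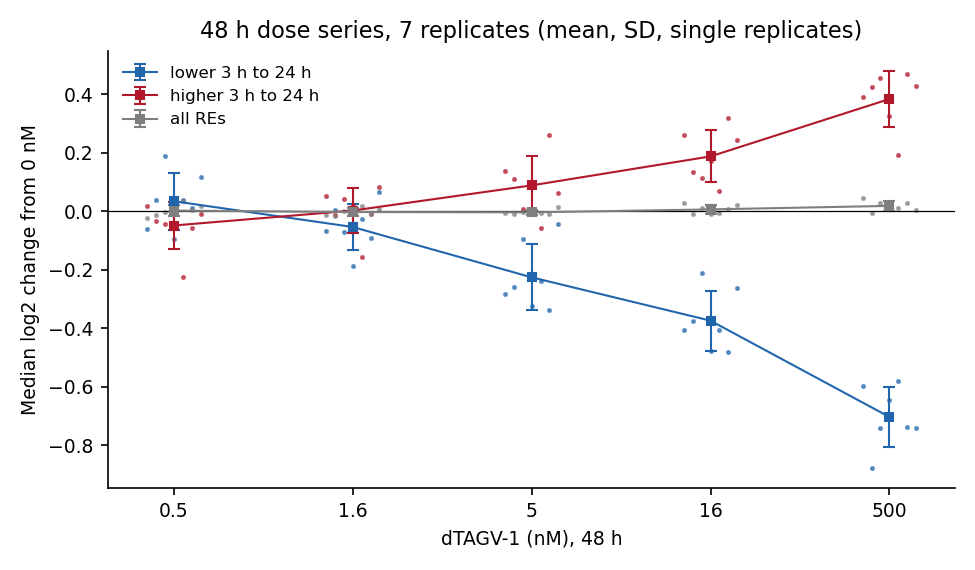
Median log2 change from 0 nM after 48 h (y axis) at 5 doses of dTAGV-1 (x axis, evenly spaced), for the REs lower and higher from 3 h to 24 h and for all REs. Squares and bars are the mean and SD of 7 replicates and dots the single replicates; the lower REs reached -0.70 and the higher REs 0.38 at 500 nM.

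The sets differed in where they lay. Of the lower REs, 4.27% were promoters (within 1000 bp of a protein-coding start site), 41.3% intronic and 43.9% intergenic, against 15.3%, 34.1% and 42.9% of all REs. Intronic and intergenic refer to protein-coding genes only. Of the higher REs, 33.4% were promoters. Median GC content was 53.0% in the lower REs and 48.2% in both the higher REs and all REs. Both sets were deeply covered, with median counts of 308 and 683 per sample against 146 over all REs, and more counts give more power to call an RE. The 504 higher REs at promoters moved little, with a median of 0.37 in R4 and 0.29 in R5, and in WT cells they went from 3 h to 24 h by -0.15 in R4 and 0.41 in R5, the same signs as the share of counts in promoters of those libraries. All 23220 promoter REs had medians of 0.01 and 0.09 in tagged and -0.09 and 0.18 in WT cells. The 1006 higher REs away from promoters had tagged medians of 0.88 and 0.47, and WT medians of 0.29 and -0.07.

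Named promoters spanned a modest range. Among the lowest were PDXK (pyridoxal kinase), SLC2A7 (a glucose transporter family member), AQP6 (an aquaporin), LYPD5 and FBXW12, at -1.38 to -1.15 on the log2 scale. At PDXK, CPM was 12.7 and 2.51 at 3 h and 3.28 and 1.69 at 24 h in tagged cells, and 6.58 and 2.65 at 3 h and 3.37 and 2.52 at 24 h in WT cells. All 5 had WT fitted changes of -0.56 to -0.79. The highest were CHRNA9 (a nicotinic receptor subunit), KRBA1, TCIM, BCKDK (a kinase of branched-chain amino acid catabolism), ZNF518B and GAS7, at 1.04 to 0.75. At KRBA1, CPM was 2.31 and 5.94 at 3 h and 5.40 and 9.18 at 24 h in tagged cells (adjusted p = 0.011, edgeR), and 1.54 and 4.72 at 3 h and 2.403 and 4.54 at 24 h in WT cells. Within each tagged differentiation the 24 h value was the higher, while the groups overlapped.

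Of 22 motifs searched on both strands in the central 500 bases of each RE, the widest gap for the lower REs was at the E-box CAGATG, in 60.6% of the lower REs, 29.7% of the higher and 41.2% of all REs. The half-site AGGTCA of NR2F and other nuclear receptors was in 43.3%, 31.7% and 33.2%, and the TEAD site GGAATG in 37.8%, 25.4% and 30.2%. The AP-1 site TGANTCA was in 10.6% of the lower REs, 32.1% of the higher and 15.0% of all REs. Promoters carried fewer AP-1 sites (7.42%), and the contrast was wider away from them, at 44.1% of the distal higher REs against 16.3% of distal REs. The KLF/SP site (CCCC directly followed by GCCC) and the ETS site CCGGAAG were in 15.96% and 11.5% of the higher REs, against 8.97% and 4.40% of all REs, and away from promoters in 4.97% and 3.18%, against 4.33% and 2.64% of distal REs. The homeobox site TAATTA was in 22.0% of the distal higher REs, 8.21% of the distal lower REs and 14.7% of distal REs.

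**Figure D5:**
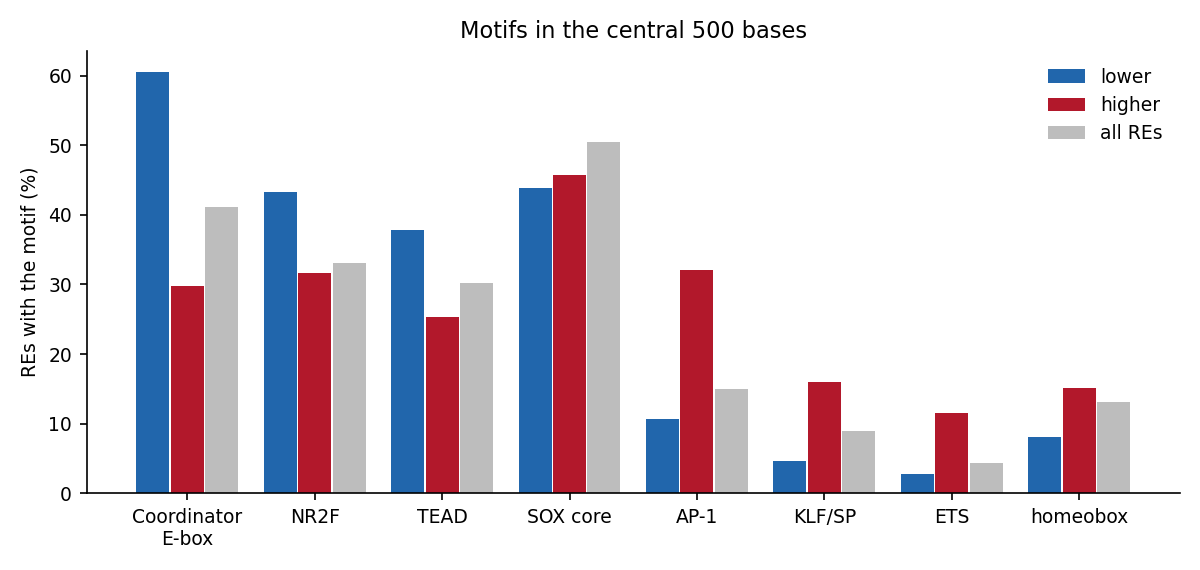
Share of REs with each motif in the central 500 bases (y axis, percent) for REs lower and higher from 3 h to 24 h and for all REs. The E-box CAGATG was in 60.6%, 29.7% and 41.2%, and the AP-1 site in 10.6%, 32.1% and 15.0%.

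Matches to the SOX core were not more frequent in the REs that fell after 3 h, while longer and paired forms differed by small amounts. The core ACAAT was in 43.8% of the lower REs, 45.7% of the higher and 50.5% of all REs. The longer form ACAATGG was in 6.88%, 5.36% and 5.54%, and an ACAAT core facing an ATTGT core at 3 to 5 bases, the arrangement bound by SOX9 dimers, in 0.302%, 0.199% and 0.165%. Seen from the motif, 2.57% of REs with CAGATG were lower and 0.72% higher. For TGANTCA these shares were 1.24% and 2.14%, for ACAAT 1.51% and 0.901%, and for the facing cores 3.2% (8 of 250) and 1.2% (3 of 250). Within the lower REs, those with CAGATG (1602) and those without it (1043) had equal tagged medians in R5 (-0.46) and near-equal medians in R4 (-0.97 and -0.96). Within the higher REs, those with TGANTCA had medians of 0.87 (R4) and 0.51 (R5), and those without it 0.57 and 0.34. A match is a run of letters and was not tested as a bound site.

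REs within 100 kb of a protein-coding start site were assigned to the nearest one, and 1.815% of these 108738 REs were lower and 0.964% higher. These were 1974 lower and 1048 higher REs, so lower calls were the more frequent over all genes too, and the lists below were not tested against them. Of 144 REs near Notch pathway genes, 6 (4.17%) were lower and 1 higher, near HES1, HEY1, HEYL and NRARP, which are all transcriptional targets and feedback regulators of Notch. The HEYL RE, in an intron (chr1:39637267-39638148), held 99.7 and 49.2 CPM in vehicle, 37.8 and 20.4 at 3 h and 17.1 and 12.75 at 24 h in tagged cells, and 59.7 to 96.0 in WT cells. The 24 h values were below both 3 h values, with a change of -0.90 ± 0.10 (adjusted p = 0.00098, edgeR). Of 261 REs near FGF pathway genes, 10 (3.83%) were lower and 2 higher. The RE nearest ETV4, an ETS factor induced by FGF signalling (chr17:43525928-43526428, in the untranslated region of DHX8), held 9.06 and 5.23 CPM at 3 h and 4.10 and 3.49 at 24 h, against 54.9 and 39.4 in vehicle and 55.5 to 65.6 in WT cells. Near SPRED1, an inhibitor of RAS signalling, 1 RE rose by 1.07 ± 0.21, back from 0.503 and 2.22 CPM at 3 h to 1.19 and 4.395 at 24 h, with 1.26 and 4.92 in vehicle.

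Of 335 REs near WNT pathway genes, 9 (2.69%) were lower and 1 higher, including 3 lower near AXIN2 and 3 near NKD1, both feedback inhibitors of the pathway. At the AXIN2 RE (chr17:65498817-65499317), CPM was 18.8 and 8.03 in vehicle, 3.87 and 2.01 at 3 h and 1.35 and 0.883 at 24 h, with 11.5 to 27.8 in WT cells. Both 24 h values were below both 3 h values, a change of -1.38 ± 0.20 (adjusted p = 0.0032, edgeR). Of 335 REs near BMP and TGF-beta genes, 11 (3.28%) were lower and 5 (1.49%) higher, with 3 lower each near the ligand BMP7 and the receptor TGFBR2. The BMP7 RE with the smallest p (chr20:57244580-57245080) held 46.7 and 5.52 CPM at 3 h and 26.05 and 4.21 at 24 h in tagged cells, and its WT R4 value also went from 47.6 to 25.8. A promoter RE of ID1, a BMP target (chr20:31604100-31604600), rose from 35.3 and 36.7 to 48.8 and 44.01 (0.38 ± 0.08, adjusted p = 0.016, edgeR). In WT cells it went from 44.3 to 36.8 in R4 and from 35.7 to 46.6 in R5. Its tagged change at 48 h was 0.03 ± 0.05. Of 215 REs near retinoid and nuclear receptor genes, 8 (3.72%) were lower and none higher. At ALDH1A3, an enzyme of retinoic acid synthesis (chr15:100853601-100854407), CPM was 7.52 and 7.17 at 3 h and 3.94 and 4.41 at 24 h, after 34.2 and 33.7 in vehicle, and the 2 differentiations were alike.

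Near the 26 CNCC factors examined, 12 of 448 REs (2.68%) were lower and 7 (1.56%) higher. The lower ones included 5 of the 28 REs assigned to PAX7, a paired-box factor of early neural crest, and 2 each near ALX4 and ETS1. The higher ones lay near the homeobox genes DLX2, MSX1 and MSX2 and near NR2F1, PAX3 and TWIST2. In tagged cells a PAX7 RE (chr1:18693516-18694016, in an intron) held 6.65 and 4.08 CPM in vehicle, 10.6 and 4.29 at 3 h and 3.57 and 2.72 at 24 h, a change of -1.14 ± 0.19 (adjusted p = 0.0053, edgeR). In WT cells it went from 7.82 to 4.675 in R4 and from 4.36 to 4.46 in R5. The MSX2 RE (chr5:174798560-174799498, 74.0 kb from the start site) held 13.2 and 15.55 in tagged vehicle cells, 11.4 and 13.5 at 3 h and 18.9 and 18.6 at 24 h, a change of 0.61 ± 0.11 (adjusted p = 0.0081, edgeR). Its WT values went from 10.7 to 13.5 in R4 and from 9.79 to 10.1 in R5. At both REs the tagged 3 h and 24 h groups did not overlap. An RE in RUNX2, the factor that commits cells to bone (chr6:45512544-45513044), fell from 1.97 and 1.02 CPM to 0.755 and 0.376 (-1.40 ± 0.28, adjusted p = 0.014, edgeR), with WT values of 0.868 to 1.75, and was 1 of 98 REs called near osteoblast genes.

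Of 62 REs near SOX5, SOX6 and SOX9, none passed the threshold in edgeR. Of 141 near cartilage matrix genes, 2 (1.42%) were lower, 1 near COL2A1 and 1 near MATN1, and none higher, close to the 1.815% and 0.964% of all assigned REs. The RE assigned to MATN1, a cartilage matrilin, lay in the untranslated region of LAPTM5 and held 20.2 and 12.05 CPM at 3 h and 13.5 and 8.43 at 24 h (-0.54 ± 0.10). Near glial and melanocyte genes, 3 of 97 REs were lower, 1 of them at ERBB3, the neuregulin receptor of glia. No RE near the genes of the AP-1 subunits themselves (92 REs) was called, and 1 of 115 near TEAD and YAP targets was lower (AMOTL2). Near genes of the epithelial-mesenchymal switch, 2 of 132 REs were lower, both near ZEB2, and 3 higher, near CDH6, SNAI1 and VIM. The ZEB2 RE (chr2:144581632-144582132) held 14.1 and 7.41 CPM at 3 h and 9.46 and 5.28 at 24 h, and the CDH6 RE (chr5:31132978-31133929) 3.45 and 4.52 at 3 h and 6.47 and 6.82 at 24 h. CDH6 is a cadherin of migrating neural crest. Its WT values were 1.16 to 3.39, below every tagged value at 3 h as well as at 24 h. Tagged vehicle cells held 3.38 and 4.12.

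Near contractile genes 1 RE of 100 was lower (TPM1) and 1 higher, at the promoter of TAGLN, an actin-binding protein of smooth muscle. There CPM went from 16.03 and 14.01 to 21.2 and 18.7 in tagged cells (0.42 ± 0.10, adjusted p = 0.03, edgeR). In WT cells it went from 12.6 to 12.2 in R4 and from 13.3 to 16.75 in R5. Near neuronal genes 1 of 126 was lower (NEUROG1) and 1 higher (GATA3). Of 181 REs near forkhead genes, 2 were lower, both near FOXC1, and 1 higher, near FOXL2. At the FOXC1 RE with the smaller p, the WT R4 value fell with the tagged one, from 6.30 to 2.24 CPM against 6.75 to 1.85. Of 143 REs near cell cycle genes, 2 were lower and 2 higher, and MYCN had 1 of each. In tagged cells the RE in its untranslated region went from 9.42 and 12.2 to 17.7 and 16.4. In WT cells that RE went from 11.6 to 10.3 in R4 and from 11.2 to 18.4 in R5. The RE 45.5 kb away went from 68.5 and 49.1 to 56.5 and 36.3 in tagged cells. Its WT values went from 64.8 to 59.3 in R4 and from 48.0 to 43.2 in R5. Near genes of cell types that the culture should not hold, 1 of 66 REs near pluripotency genes was higher (DPPA4), 1 of 50 near skeletal muscle genes was lower (MEOX1), and none of 91 near neuroepithelial, 62 near endothelial and blood and 52 near epithelial genes was called.

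The genes with the most called REs were found after the values were seen. DAB2IP, a RAS GTPase-activating protein, had 7 lower REs of 56, and SEPTIN9, a cytoskeletal GTPase, 7 of 54, with 1 higher RE each. CUEDC1 (of 18 REs), NFASC (of 26), PAX7 (of 28) and PKNOX2 (of 26) had 5 lower REs each and none higher. No gene had more than 4 higher REs. Over all REs assigned to a gene, 1.815% were lower and 0.964% higher. These genes are the extremes over all genes, and their counts were not tested.

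The 2 REs with the smallest p in WT cells did not pass the threshold (adjusted p = 0.25 each, edgeR). The RE nearest BANP (chr16:88136111-88136611) held 5.69 and 0.979 CPM at 3 h and 1.79 and 0.433 at 24 h in WT cells. An RE in an intron of DSCAM (chr21:40176580-40177080) held 11.98 and 1.88 at 3 h and 3.30 and 1.101 at 24 h. Both were also lower at 24 h in tagged cells, by -0.86 ± 0.21 and -1.51 ± 0.26, and the difference between genotypes at DSCAM was -0.05 ± 0.38.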

How the data were processed

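ATAC-seq was performed on 58 samples, of which the 12 time-course samples and the 48 h series were used. The deposited table holds raw read counts per RE, which the authors obtained by trimming, alignment to hg38 with Bowtie2 2.4.1, filtering with SAMtools 1.10, peak calling with MACS2 2.2.7.1, and counting over merged peaks with bedtools; deepTools 3.5.0 was also listed in the submitters' processing notes. All 58 columns were matched to sample titles, 3 of them despite the differing clone name.

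Counts were tested over all 151457 REs with edgeR 4.0.16 in R 4.3.3 (TMM normalization, quasi-likelihood F test, no low-count filter). The 6 samples of a genotype were fitted with differentiation as covariate, as in the study's own tests, and the interaction used all 12 with genotype by differentiation blocks. Standard errors are the log2 change divided by the square root of F. DESeq2 1.42.0 and other settings were alternatives. CPM values are TMM-normalised, and log2 CPM used a prior count of 2. The R4 and R5 numbers mark differentiations and paired the samples: deviations from the group means correlated at 0.73 to 0.89 between conditions (REs with at least 100 counts). No samples were duplicates, since counts within groups differed 15.1- to 28.0-fold more than sampling noise (reduced chi-square). The fit was tested on simulated data. REs were annotated with GENCODE v44, and sequences came from the hg38 genome.

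Named REs were, first, the 8 lowest and 8 highest log2 changes among called REs with a mean of at least 50 counts over the 4 samples, moving the same way in both differentiations, 1 per nearest gene. They were, further, the smallest p in each direction for each of 22 gene lists, the 6 lowest and 6 highest promoters under the conditions of the first rule, the 4 smallest interaction p, and the 2 smallest p in WT cells. The comparison, gene lists and motifs were chosen with earlier results of these data known. Some REs that these rules chose are not reported here.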

Additional observations from a re-analysis of the deposited data

Results flagged for a closer look

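The change from 3 h to 24 h at the RE in DIAPH1 differed between genotypes in the test of the difference itself, by -1.881 on the log2 scale (SOX9-tagged minus WT, adjusted p = 0.042, edgeR), with -1.92 in tagged and -0.04 in WT cells. It also passed under DESeq2 size factors, total counts, the low-count filter, GC correction and without tagged R5, and did not pass in DESeq2, without the replicate block, without tagged R4 or without either WT differentiation.

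In the 48 h series, replicate S9CC47_R5 lay far from the other 6 replicates at both of the lowest doses, for the REs that were higher from 3 h to 24 h. Its median change from 0 nM was -0.223 at 0.5 nM, where the others lay between -0.057 and 0.019, and -0.157 at 1.6 nM, where the others lay between -0.013 and 0.082. These were 2 of 10 groups of 7 replicates examined, and chance marks about 1 group in 20; both used the same 0 nM sample of that replicate, so they are not separate.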

How the results depend on the processing

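The count of REs changed from 3 h to 24 h in tagged cells (4155) was 4304 with DESeq2 size factors, 3401 with total counts (73.0% of them lower, against 63.7%), 4155 with a low-count filter, which removed no RE, 4617 with GC correction in the replicate block and 5978 with the 4 samples alone. It moved further to 1090 in DESeq2 (857 lower and 233 higher, 78.6% lower) and 2424 with all 12 samples in the fit (1946 and 478, 80.3% lower), and ran from 2 to 3534 without one replicate. Without R5, 75.2% of the calls were lower, and 1876 of the 3534 REs were among the 4155. Without the replicate block, that is, ignoring the pairing by differentiation, 0 REs passed in tagged cells (2191 at an unadjusted p below 0.05), 0 in WT cells and 0 for the difference, and the 48 h count of 36546 became 15104. In WT cells (0), DESeq2 gave 4, total counts 15, GC correction 75, the 4 samples alone 55, and leaving out a replicate 0 to 227. For the difference between genotypes (1), DESeq2 gave 27, total counts 5, GC correction 28, and leaving out a replicate 0 to 11. Fits that left out a replicate also held the other genotype, so for tagged cells the like count is the 2424 of all 12 samples. In those fits the lone sample was assumed to vary like those of the other genotype. The cause of these moves was not tested, apart from the fewer samples. The settings refit the time-course samples on which the 58 named REs had been chosen. That every one of these REs kept its sign in all settings is therefore not independent support. DESeq2 left 24 of them past the threshold, total counts 50, all 12 samples 49, GC correction 53, leaving out R4 1 and leaving out R5 36. Without the R14 samples, an alternative chosen after seeing the data, the 48 h count was 32145. Without R5 or without R14, the 48 h dose profile moved by less than the spread between replicates at every dose. Depth limited the smallest values: tagged R4 at 3 h, at 43017163 counts, was the shallowest of the 12 samples, and the fewest counts among the REs described here were at TRIM36, with a mean of 52.25.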
